A study of Mus musculus with 3 samples.

Results

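Venous endothelial cells of the mouse lacrimal gland (LG) were taken as the barcodes of 3 single-cell RNA sequencing (scRNAseq) libraries that passed a rule on 13 genes. A cell needed more than 500 unique molecular identifiers (UMIs, tags that count each captured RNA molecule once), more than 200 genes and less than 15% of its UMIs from mitochondrial genes. It then needed at least 2 UMIs over the endothelial genes *Pecam1*, *Cdh5*, *Kdr*, *Flt1*, *Egfl7* and *Emcn*, at least 2 UMIs over the venous genes *Selp*, *Ackr1* and *Vcam1*, and 0 UMIs each of *Ptprc*, *Epcam*, *Col1a1* and *Col3a1*, which mark leukocytes, epithelium and fibroblasts. The rule kept 297 of the 19592 passing cells: 164 of 8298 in the female library, 67 of 5582 in male library 1 and 66 of 5712 in male library 2. Endothelial cells by the same rule with 0 or 1 UMI of the venous genes (1307 cells) served as the comparison and are called other endothelial cells. Of these, 791 had at least 2 UMIs over *Rgcc* and *Cxcl12* and at most 1 over the arteriolar genes *Fbln2*, *Cldn5*, *Stmn2*, *Gja5* and *Sema3g*, and are called capillary-gated. The reverse held for 46 cells, which are called arteriolar-gated.

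All libraries came from C57BL/6J mice aged 2 months, with no treatment named in the labels. Each was made from 6 glands of 3 mice, pooled and digested with enzymes before capture. Sex was aligned with the facility (Scripps for the female library, Salk for the male ones) and with the preparation day, so these cannot be told apart. No sex difference was tested, since there was 1 female library.

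Venules are the vessels that collect blood behind the capillaries, and they are the main place where leukocytes leave the blood. Their endothelial cells store P-selectin (*Selp*) with von Willebrand factor (*Vwf*) in granules that can be emptied to the surface within minutes. P-selectin and E-selectin (*Sele*) slow a passing leukocyte, chemokines shown on the cell surface activate its integrins, and the integrins then bind the receptors encoded by *Icam1* and *Vcam1*. *Ackr1* encodes an atypical chemokine receptor of venules that carries chemokines across the cell. In the LG this route serves the plasma cells and T cells that live beside the ducts and acini.

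All values in threes below follow the order female, male 1, male 2. The members held 528509, 112627 and 120990 UMIs. Their median was 2986.5, 1578 and 1317 UMIs per cell, against 2459, 1385.5 and 1144.5 in other endothelial cells. Genes of tear products, which acinar cells make, took a median of 22.3, 43.7 and 44.5% of a member’s UMIs and 27.3, 51.7 and 46.0% in other endothelial cells. Scaling the profile of uncalled barcodes with 500 to 2000 UMIs to these genes gave an estimate of free RNA at 37.5, 52.5 and 63.0% of the members’ UMIs. The planned profile, from uncalled barcodes with 10 to 100 UMIs, gave 42.5, 56.9 and 68.0%. The rule found 0 endothelial cells among 2902, 1413 and 1901 uncalled barcodes that passed the same filters on UMIs, genes and mitochondrial share. Between the female library and male library 2, 1 member barcode was shared, and no other pair of libraries shared one. Levels are given as counts per 1000000 UMIs (CPM) of the summed cells of a library.

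The 3 genes that chose the members are given as a description, with no test. *Selp* (chr1:164115264-164150026 in GRCm38, plus strand) stood at 2288, 2309 and 2141 CPM in members and at 7.16, 28.8 and 17.0 in other endothelial cells. *Ackr1* (chr1:173331886-173333750, minus strand) stood at 342, 355 and 306 in members and at 3.13, 3.84 and 2.43 in the other cells. *Vcam1* (chr3:116109949-116129688, minus strand) stood at 651, 462 and 488 in members and at 8.95, 26.9 and 9.72 in the other cells. For *Selp* and for *Ackr1*, the member levels of the 3 libraries lay close together, and for *Vcam1* the female level was the highest.

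Most members were chosen through *Selp*. A *Selp* UMI was found in 277 of 297 members (93.3%), a *Vcam1* UMI in 194 (65.3%) and an *Ackr1* UMI in 126 (42.4%). All 3 genes were found in 75 members, *Selp* with *Vcam1* in 103, and *Selp* alone in 62. *Vcam1* without the other two was found in 5 female members, 1 member of male library 1 and 0 of male library 2. The planned comparison of these cells with members holding *Selp* or *Ackr1* was therefore not made. The sum of the 3 genes ranged from 2 to 45 UMIs in a female member with a median of 7.5, from 2 to 22 with a median of 4.0 in male library 1, and from 2 to 17 with a median of 4.5 in male library 2.

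Members were 17.8% of the endothelial cells in the female library (164 of 923, 95% Clopper-Pearson interval 15.4 to 20.4%), 16.7% in male library 1 (67 of 401, 13.2 to 20.7%) and 23.6% in male library 2 (66 of 280, 18.7 to 29.0%). The intervals cover counting error only and overlap between all libraries. With each cell thinned to 1000 UMIs before the rule and shallower cells left out (7, 0 and 4 members and 52, 32 and 73 other endothelial cells), the share was 11.6, 14.0 and 25.1%, lower in 2 libraries and higher in male library 2. In that setting the female interval ended at 13.9% and that of male library 2 began at 18.8%.

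Values at the threshold of the rule are given for cells with 1 UMI of the venous genes (outside) and with 2 UMIs (inside). *Vwf* was at 46.4, 30.7 and 29.3 CPM in cells with 0 UMIs, at 267, 188 and 28.5 in cells with 1 and at 445, 164 and 45.5 in cells with 2. *Cxcl12*, a capillary gene, was at 1010, 345 and 157 in cells with 1 UMI and at 154, 123 and 273 in cells with 2. In cells with 0 UMIs *Cxcl12* was at 2290, 1867 and 1333, above the cells with 1 UMI in each library. A *Cxcl12* UMI was found in 81.0, 67.7 and 63.9% of cells with 0 UMIs and in 65.1, 19.4 and 16.7% of cells with 1. These bins were small, with 43, 31 and 12 cells at 1 UMI and 25, 15 and 13 cells at 2. In male library 2 the 12 cells at 1 UMI had a median of 1299 UMIs and a sum of 70221. Deep cells thus held most of that sum and weigh on the *Vwf* and *Cxcl12* levels of that bin.

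**Figure D1:**
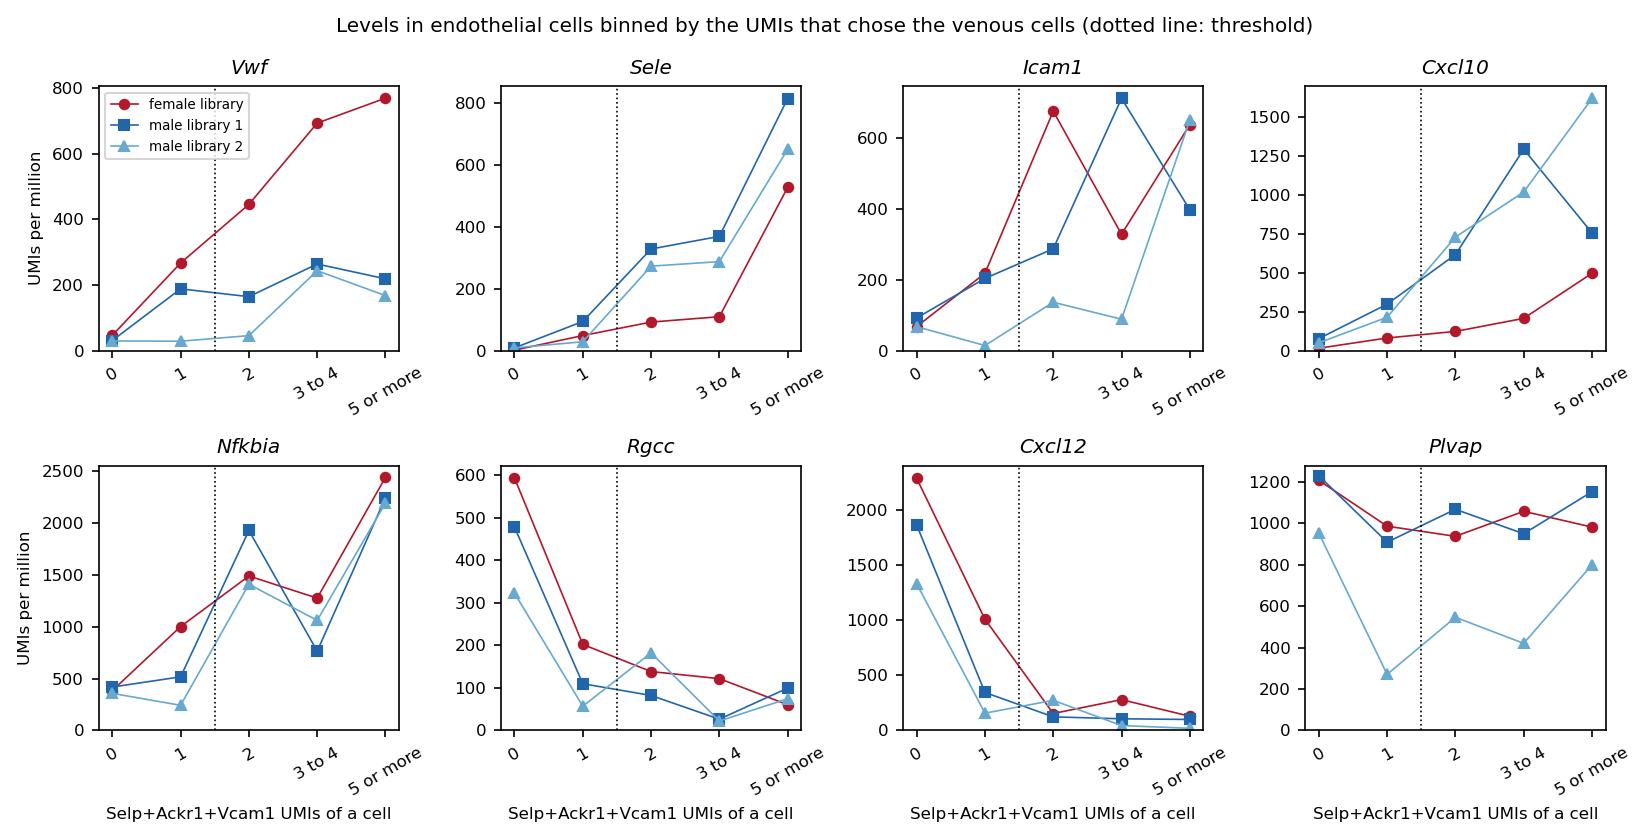
Level in CPM (vertical axis) of 8 genes in endothelial cells binned by their summed *Selp*, *Ackr1* and *Vcam1* UMIs (horizontal axis), with one line per library and a dotted line at the threshold between 1 and 2 UMIs. *Vwf*, *Sele*, *Cxcl10* and *Nfkbia* were higher in the bin of 5 or more UMIs than in the bin of 0 in each library, *Rgcc* and *Cxcl12* were lower, and *Plvap* was at 981, 1152 and 799 in the highest bin against 1207, 1229 and 952 in the bin of 0.

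To find what else set members apart, UMIs were summed per library over members and over other endothelial cells and compared with edgeR’s quasi-likelihood test, with the library as a block, because both sums of a library come from the same suspension. The rule’s 13 genes were left out. Of 3683 genes tested, 325 (8.82%) were higher in members at a Benjamini-Hochberg adjusted p under 0.05 and 231 (6.27%) were lower, or 15.1% in either direction. The same direction was seen in 3 of 3 libraries for 302 of the 325 and 207 of the 231 genes. With DESeq2 the counts were 150 higher and 67 lower, so that 69.1% of calls were higher in place of 58.5%. Of 111 called genes named in the text, 45 did not pass with DESeq2. Without the female library, which held most member UMIs, 1916 genes were tested, of which 184 were higher and 135 lower. A gene needed 21.46 CPM in at least 3 of the 6 sums to be tested, and 57 of the 3683 genes had no sum of other endothelial cells at that level. Such genes passed through members alone and could hardly be called lower. Another 39 had no member sum at that level, passed through other endothelial cells alone and could hardly be called higher. The counts over lists below are therefore descriptions. The shares of 8.82% higher and 6.27% lower are the background for each list. The fold changes (log2FC) below are members over other endothelial cells on the log2 scale with their standard error, and each adjusted p is from this test over all 3683 genes. The 3 libraries are pools of mice. With the library as a block, the p-values rest on the spread of counts left after library and group, an estimate shared in part over genes. A small p-value therefore does not show that the ratios of the 3 libraries were alike. *H2-Eb1*, for one, was called higher at log2 ratios of 2.29, -1.41 and -0.14.

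**Figure D2:**
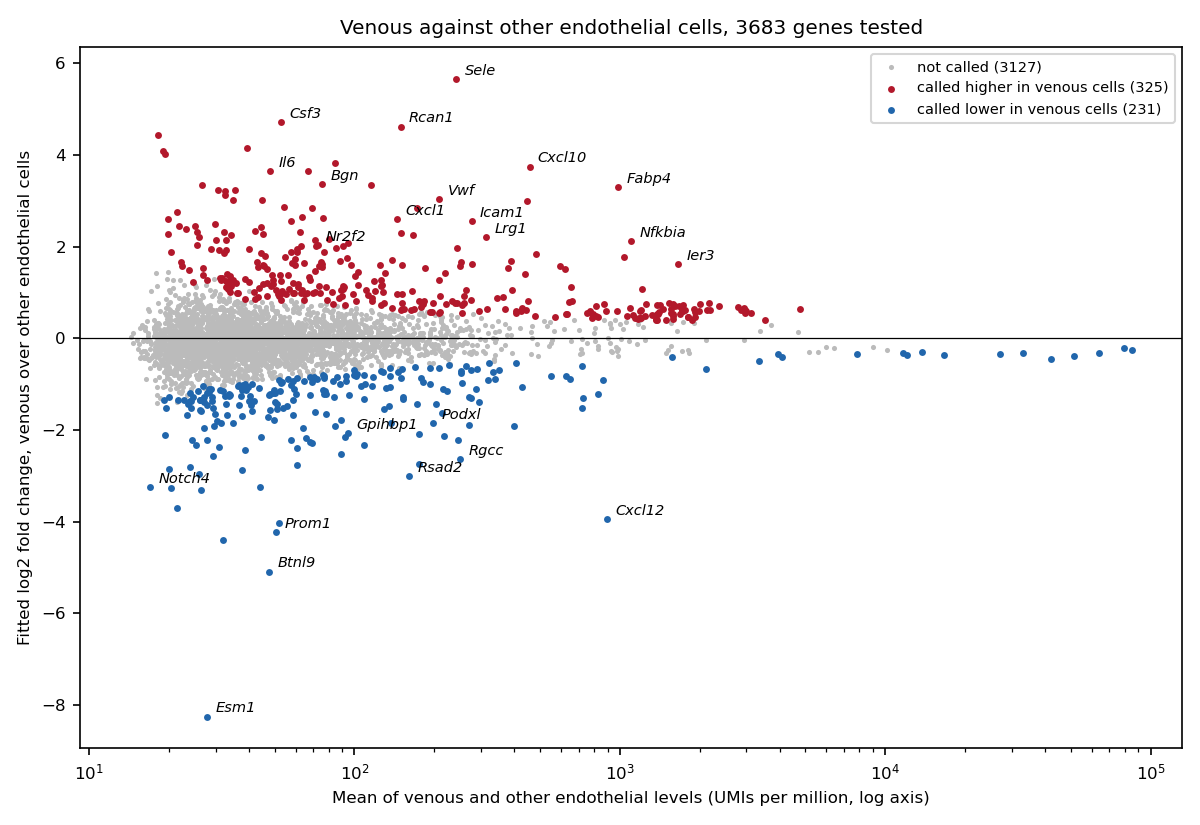
Each point is 1 of the 3683 tested genes, with the mean level in CPM on a log axis (horizontal) and the fitted log2 fold change of members over other endothelial cells (vertical), in red for the 325 genes called higher, in blue for the 231 called lower and in grey for the rest. *Sele* has the highest fitted fold change (5.66). The lowest point is *Esm1*, which had 0 UMIs in members, so that its fitted value is no bound.

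Venous marker genes that the rule had not used were mostly higher in members. Of 18 venous marker genes outside the rule, 17 passed the filter on low counts, 13 were higher in members and 0 lower, beside 8.82% of all tested genes higher. Their median log2FC was 1.66, against -0.05 over all tested genes. Of the 17, *Sele*, *Il1r1*, *Csf2rb2* and *Bgn* were tested through members alone. *Vwf* (chr6:125546774-125686679), which encodes the carrier of clotting factor VIII and the tether of platelets, was at 717, 222 and 174 CPM in members and at 58.6, 49.98 and 29.2 in other endothelial cells. Every member level lay above every level of the other cells, and the female level was the highest (log2FC 3.04 ± 0.24, adjusted p = 2.7e-32). *Nr2f2* (chr7:70351944-70366735) encodes COUP-TFII, the factor that sets venous identity and holds back Notch signalling. It was at 202, 79.9 and 66.1 in members and at 43.0, 25.0 and 19.4 in the other cells (log2FC 2.03 ± 0.30, adjusted p = 1.1e-09). *Lrg1*, a secreted glycoprotein of venules, was at 482, 506 and 529 in members and at 54.2, 188 and 126 in the other cells (2.21 ± 0.21, adjusted p = 5.9e-24). *Bgn*, the proteoglycan biglycan, and *Tmem252* were higher by 3.37 ± 0.33 and 3.34 ± 0.27. *Apoe*, the least changed of the higher markers (0.52 ± 0.17, adjusted p = 0.023), had a log2FC of -0.15 without the female library. The 4 tested markers that did not pass were *Ephb4*, *Tmem176a*, *Tmem176b* and *Ctla2a*. *Ephb4*, the venous receptor of ephrin-B2, was at 30.3, 17.8 and 24.8 in members and at 60.4, 48.1 and 21.9 in the other cells.

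A *Vwf* UMI was found in 74.4, 26.9 and 30.3% of members and in 10.9, 5.39 and 4.67% of other endothelial cells. In epithelial-gated cells, which should lack *Vwf*, the share was 2.09, 4.502 and 4.28% at a deeper median of 4199, 4300.5 and 6022.5 UMIs. After thinning to 1000 UMIs per cell the shares were 49.0, 13.4 and 17.7% in members, 5.66, 3.31 and 4.26% in other endothelial cells and 0.150, 0.475 and 0.169% in epithelial-gated cells. In the male libraries most members thus held no *Vwf* UMI, and at their depth this does not show that the cells lack the transcript.

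Capillary genes ran the other way. Of 19 capillary markers, 14 were tested, 8 were lower in members and 3 higher, beside 6.27% of all tested genes lower. Their median log2FC was -0.81. Of the 14, *Esm1* and *Btnl9* were tested through other endothelial cells alone and could hardly have been called higher. *Cxcl12* (chr6:117168535-117181367), the chemokine that binds CXCR4, was at 155, 107 and 74.4 CPM in members and at 2219, 1680 and 1132 in other endothelial cells (log2FC -3.94 ± 0.20, adjusted p = 2.1e-82). *Rgcc* (chr14:79288756-79301645), a regulator of the cell cycle, was at 79.5, 71.0 and 74.4 in members and at 571, 432 and 277 in the other cells (-2.64 ± 0.25, adjusted p = 6e-24). Members and other cells did not overlap in either gene. For *Rgcc*, epithelial-gated cells held 20.2, 48.2 and 42.5, so the male member levels were near those of cells that should lack the gene.

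*Esm1* (chr13:113209659-113218098), which encodes endocan, had 0 UMIs in the members of every library and 130, 34 and 18 UMIs in other endothelial cells. Over the summed libraries it was at least 14.6-fold lower in members, taking 3 counts as the floor over all members. *Btnl9* had 3 UMIs in members and 449 in the other cells, a ratio of 36.0-fold lower per UMI (95% interval 12.3 to 175, counting error only). *Gpihbp1*, which anchors lipoprotein lipase to capillary endothelium, was at 56.8, 44.4 and 8.27 in members and at 229, 152 and 75.3 in the other cells (log2FC -2.06 ± 0.29, adjusted p = 5.8e-11). *Cd300lg*, *Sgk1* and *Sparc* were also lower. *Plvap*, the protein of the diaphragms in fenestrated endothelium, was at 988, 1065 and 612 in members and at 1195, 1190 and 836 in the other cells and did not pass the test (-0.38 ± 0.15, adjusted p = 0.087).

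The 3 capillary-list genes that were higher in members were *Fabp4*, *Fabp5* and *Aqp1*. *Fabp4* (chr3:10204088-10208576), a carrier of fatty acids, was at 2498, 1651 and 1207 CPM in members and at 176, 283 and 85.0 in other endothelial cells, with no overlap (log2FC 3.31 ± 0.17, adjusted p = 7.6e-75). Capillary-gated cells held 82.2, 123 and 23.4 and arteriolar-gated cells 1329, 1469 and 1057, the last being 1 cell. *Fabp4* was therefore shared by members and arteriolar-gated cells, and its level was lowest in capillary-gated cells. The water channel *Aqp1* was higher by 1.504 ± 0.17 and *Fabp5* by 1.67 ± 0.30, though *Fabp5* was at 0.60 and did not pass without the female library (adjusted p = 0.38).

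Of 19 arteriolar markers, 9 were tested, with 2 higher and 2 lower in members, beside 8.82 and 6.27% of all tested genes. *Mgp* (2.26 ± 0.24) and *Fbln2* (1.61 ± 0.24), both proteins of the matrix, were higher. *Efnb2* (-1.45 ± 0.38), the arterial ephrin ligand, and *Sox17* (-0.94 ± 0.27), an arterial transcription factor, were lower. The genes of the arteriolar gate did not move together. *Fbln2*, given above, was higher in members. A *Stmn2* UMI was found in 20 of 164, 2 of 67 and 2 of 66 members. In other endothelial cells it was found in 58 of 759, 8 of 334 and 3 of 214, a smaller share in each library. *Cldn5*, *Sema3g* and *Gja5* were nearly missing from members and too sparse to be tested. *Cldn5* had 6, 0 and 0 UMIs in members and 207, 23 and 6 in other endothelial cells. *Sema3g* had 1, 0 and 0 against 121, 14 and 5, and *Gja5* had 0 in members against 16, 2 and 1. Lymphatic markers were sparse as well, with *Prox1* at 2, 0 and 0 UMIs and *Lyve1* at 0 in members.

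**Figure D3:**
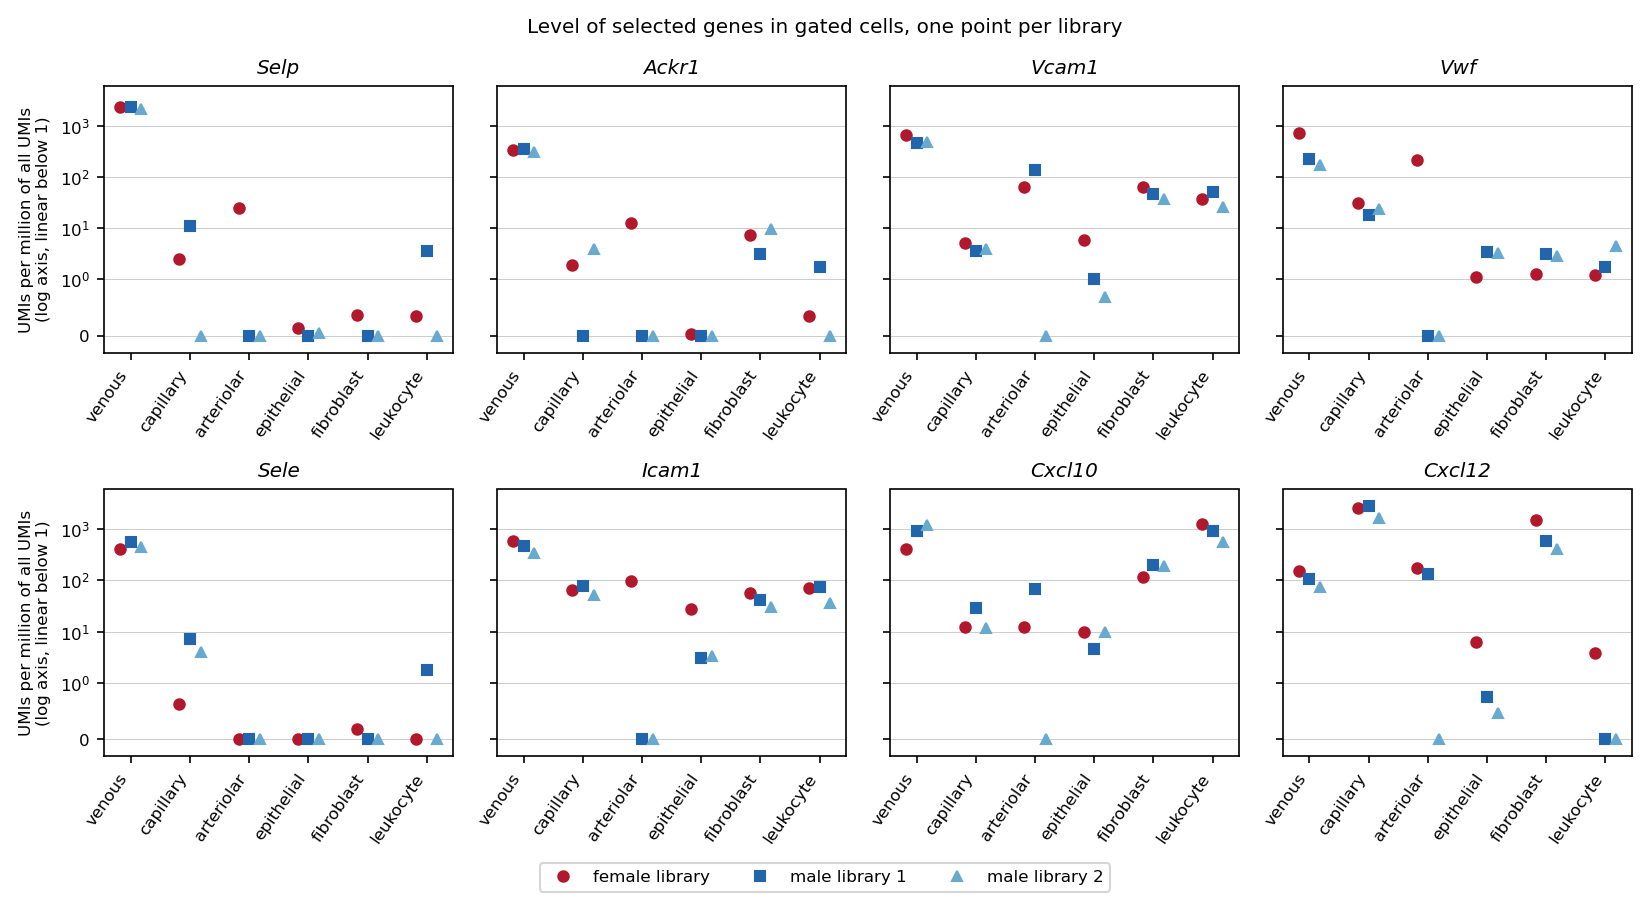
Level in CPM (vertical log axis, linear below 1) of 8 genes in venous, capillary-gated, arteriolar-gated, epithelial-gated, fibroblast-gated and leukocyte-gated cells, with one point per library. The arteriolar-gated points rest on 35, 10 and 1 cells. *Sele* stood at 409 to 559 in members and at or below 7.24 in every other group, whereas *Cxcl10* was also high in leukocyte-gated cells (576 to 1267).

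The gene with the highest fitted fold change in members was *Sele* (chr1:164048234-164057677), which encodes E-selectin and lies 57586 bases before *Selp* on the same strand. *Sele* was at 409, 559 and 446 CPM in members and at 4.03, 19.2 and 12.1 in other endothelial cells (log2FC 5.66 ± 0.28, adjusted p = 1.2e-85). It was tested through members alone and could hardly have been called lower. The groups did not overlap, and the lowest member level was above the highest other level by more than an order of magnitude. A *Sele* UMI was found in 45.1, 46.3 and 51.5% of members, in 0.922, 2.40 and 1.87% of other endothelial cells and in 0 of the epithelial-gated cells of each library (1337, 1266 and 1216 cells). In arteriolar-gated cells *Sele* was at 0 in all libraries. Unlike *Vwf*, *Sele* was found in a similar share of members in all 3 libraries, and after thinning the shares were 30.6, 29.9 and 37.1%.

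*Icam1* (chr9:21015985-21028817) encodes the integrin ligand ICAM-1. It was at 594, 479 and 347 CPM in members and at 76.1, 106 and 58.3 in other endothelial cells, with no overlap (log2FC 2.57 ± 0.22, adjusted p = 8.3e-30). Of the 20 genes listed for leukocyte adhesion and passage, 17 were tested, and *Sele* and *Icam1* were the 2 higher ones. The count of higher genes was thus near the background of 8.82% of all tested genes. The count of lower genes, 3 of 17, was above the background of 6.27%. *Sele* was tested through members alone. *Lgals3bp*, *Podxl* and *Jam3* were the 3 lower ones, with log2FC of -2.84 ± 0.62, -1.86 ± 0.25 and -1.79 ± 0.29. *Lgals3bp* was tested through other endothelial cells alone. *Podxl* encodes podocalyxin, an anti-adhesive sialomucin, and *Jam3* a junctional adhesion molecule. The other 12 did not pass, among them *Icam2* at 70.0, 62.2 and 41.3 in members against 90.9, 90.3 and 55.9, and *Jam2* at 346, 178 and 124 against 235, 123 and 65.6. The median log2FC of the list was -0.03, close to that of all tested genes.

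Members were checked against high endothelial venules, the tall venules of lymph nodes that take up lymphocytes. *Glycam1*, *Fut7*, *Chst4*, *Madcam1* and *Ubd* had 0 UMIs in members and in other endothelial cells. Of 14 genes of that list, 6 were tested and 3 were lower in members: *Podxl*, *Enpp2* (-1.53 ± 0.49), which makes lysophosphatidic acid, and *Chst2* (-1.38 ± 0.39), a sulfotransferase. This count stands beside 6.27% of all tested genes lower, and 1 of the 6 was tested through other endothelial cells alone. With 762126 member UMIs, 3 counts correspond to 3.94 CPM, so lower levels of the genes at 0 UMIs could not have been seen.

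Of 20 chemokine genes listed, 6 were tested, with 3 higher and 1 lower in members, beside 8.82 and 6.27% of all tested genes. *Cxcl10* (chr5:92346638-92348889, minus strand), a ligand of CXCR3 on activated T cells, was at 405, 906 and 1232 CPM in members and at 18.8, 104 and 77.7 in other endothelial cells (log2FC 3.75 ± 0.21, adjusted p = 1.7e-66). The 3 member levels were spread widely and still lay above all levels of the other cells. *Cxcl9*, another CXCR3 ligand, was at 32.2, 62.2 and 90.9 in members and at 2.69, 13.5 and 7.29 in the other cells (3.02 ± 0.55, adjusted p = 1.3e-06). *Cxcl1* (chr5:90891241-90893115), a neutrophil attractant, was at 159, 302 and 289 against 22.8, 63.4 and 34.0 (2.61 ± 0.24, adjusted p = 1.8e-24). All 3 were lowest in the female members. *Cxcl12*, given above, was the lower one. *Cxcl2*, another neutrophil attractant, was at 26.5, 151 and 0 against 18.4, 42.3 and 38.9 and did not pass (0.61 ± 0.37, adjusted p = 0.35), nor did *Cx3cl1* (-0.015 ± 0.43, adjusted p = 0.997). Without male library 2, *Cxcl2* passed (log2FC 1.09, adjusted p = 0.045). *Cxcl9* was tested through members alone. *Cxcl11*, *Ccl19* and *Ccl21a* were not analysed here.

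*Cxcl10* was not restricted to members. Leukocyte-gated cells held 1267, 944 and 576 CPM of it and fibroblast-gated cells 115, 198 and 191, and epithelial-gated cells held 9.92, 4.61 and 9.64. Members were gated on 0 *Ptprc* UMIs. The 15 further leukocyte genes listed summed to 237, 17.8 and 8.27 CPM in members, with *Csf1r* at 2, 0 and 0 UMIs and *Cd3e* at 0, and to 124, 121 and 141 in other endothelial cells. In the male libraries the members held less of the leukocyte list, from 2 and 1 UMIs, and more *Cxcl10* than the other endothelial cells. In the female library the members held more of both. The part of leukocyte RNA in the member level of *Cxcl10* was not tested.

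**Figure D4:**
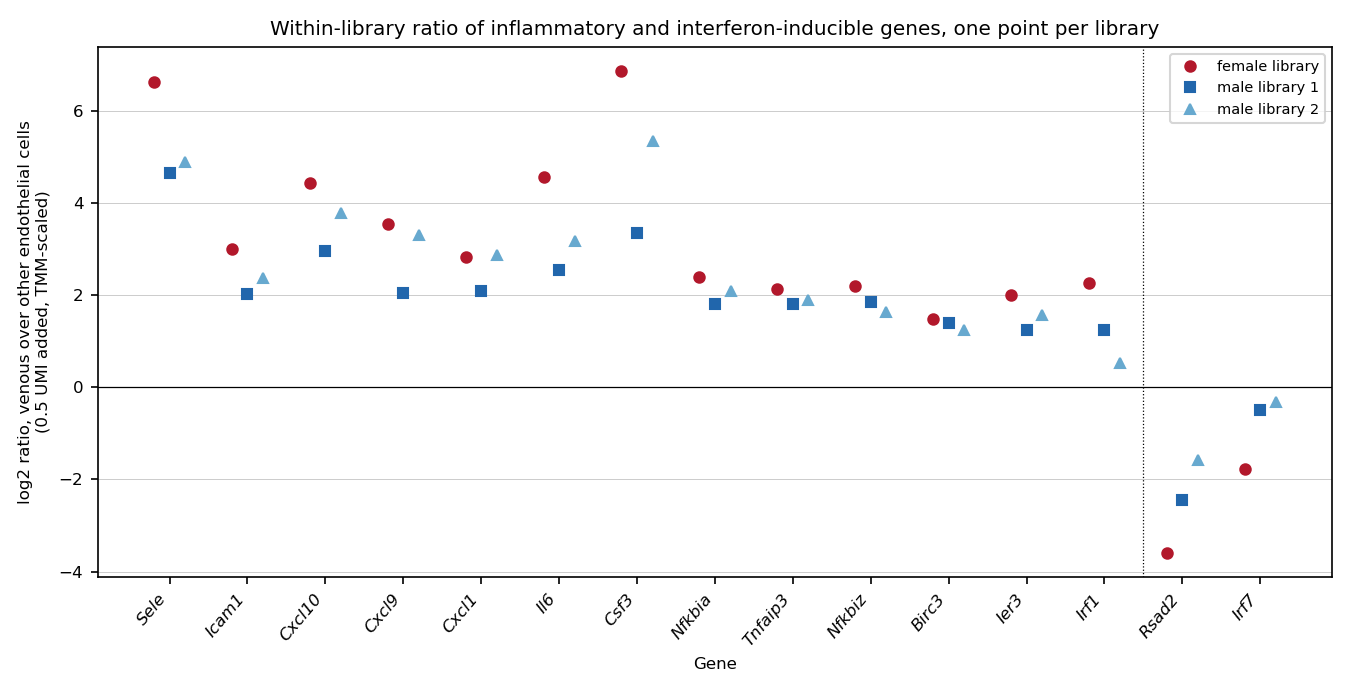
Log2 ratio of members over other endothelial cells within each library (vertical axis, 0.5 UMI added and scaled with TMM factors) for 15 genes, with one point per library. To the left of the dotted line, each gene was higher in members in 3 of 3 libraries. *Rsad2* and *Irf7* to the right were lower in 3 of 3.

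NF-kB is the factor that inflammatory cytokines and bacterial products activate in endothelium. Of 22 genes listed as induced through it, 12 passed the filter, 8 were higher and 0 lower, with a median log2FC of 1.51, beside 8.82% of all tested genes higher. *Il6* and *Csf3* were tested through members alone and could hardly have been called lower. *Nfkbia* (chr12:55489410-55492647, minus strand), the inhibitor that NF-kB induces against itself, was at 2144, 1678 and 1628 CPM in members and at 419, 431 and 338 in other endothelial cells (2.11 ± 0.16, adjusted p = 4.5e-38). *Tnfaip3*, which encodes the deubiquitinase A20, was at 176, 88.8 and 82.7 against 41.2, 23.1 and 19.4 (2.02 ± 0.31, adjusted p = 2.2e-09). Both are feedback inhibitors, and *Nfkbiz* (1.98 ± 0.22) and *Birc3* (1.39 ± 0.39) are further NF-kB targets. The early gene *Ier3* was at 3162, 2353 and 2124 against 800, 890 and 632 (1.63 ± 0.14).

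*Il6* and *Csf3*, cytokine genes of the same list, were low but set members apart. *Il6* (chr5:30013114-30019981) was at 66.2, 88.8 and 107 CPM in members and at 2.69, 13.5 and 9.72 in other endothelial cells (3.65 ± 0.43, adjusted p = 5e-15), from 35, 10 and 13 member UMIs. *Csf3* (chr11:98701263-98703629), the gene of G-CSF, was at 24.6, 115 and 165 against 0, 9.61 and 2.43 (4.72 ± 0.59, adjusted p = 1.1e-13), from 13, 13 and 20 UMIs. *Csf3* was found in 8, 10 and 13 members. Capillary-gated, arteriolar-gated, fibroblast-gated and leukocyte-gated cells held no *Csf3* UMI in any library. Among epithelial-gated cells it was found in 1, 1 and 0 cells.

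The sequences before the start of 4 of the genes that were higher in members are shown because several of these genes are known NF-kB or interferon targets. Each is the 250 bases before the RefSeq start on the gene’s own strand in GRCm38.p6, 5′ to 3′, in lower case. Capitals mark matches on either strand to a form of the NF-kB motif, which is GGG, any 3 bases and TTCC, or to a form of the interferon-stimulated response element, which is GAAA, any 2 bases and GAAA. The motif letters were chosen after the results were known. Of the 32851 windows of this length, 4.65% held the first and 2.98% the second, and the 2 forms share no match here.
*Sele* (chr1:164047984-164048233, plus strand): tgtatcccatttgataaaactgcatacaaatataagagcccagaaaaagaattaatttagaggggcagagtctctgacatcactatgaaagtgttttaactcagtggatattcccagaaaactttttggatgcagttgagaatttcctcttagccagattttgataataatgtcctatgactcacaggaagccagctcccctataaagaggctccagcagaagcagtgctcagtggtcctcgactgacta
*Cxcl10* (chr5:92348890-92349139, minus strand): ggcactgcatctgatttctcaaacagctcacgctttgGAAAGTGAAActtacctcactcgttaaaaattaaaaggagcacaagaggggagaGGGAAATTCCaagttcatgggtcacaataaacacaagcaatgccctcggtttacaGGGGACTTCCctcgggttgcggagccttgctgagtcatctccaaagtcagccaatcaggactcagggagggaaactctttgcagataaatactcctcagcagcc
*Il6* (chr5:30012864-30013113, plus strand): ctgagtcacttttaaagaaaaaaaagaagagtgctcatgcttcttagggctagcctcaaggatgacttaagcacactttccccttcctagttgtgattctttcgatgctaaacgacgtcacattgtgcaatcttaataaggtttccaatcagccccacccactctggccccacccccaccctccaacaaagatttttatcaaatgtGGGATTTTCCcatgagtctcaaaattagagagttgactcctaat
*Nfkbia* (chr12:55492648-55492897, minus strand): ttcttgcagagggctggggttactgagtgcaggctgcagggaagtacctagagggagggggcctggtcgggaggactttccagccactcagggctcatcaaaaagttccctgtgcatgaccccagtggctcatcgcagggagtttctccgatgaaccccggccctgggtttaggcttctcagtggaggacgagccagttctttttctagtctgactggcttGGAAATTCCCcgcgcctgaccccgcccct

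In these windows the NF-kB form lay 159 to 150 and 104 to 95 bases before the start of *Cxcl10*, 44 to 35 bases before that of *Il6* and, on the opposite strand, 29 to 20 bases before that of *Nfkbia*. The interferon form lay 213 to 204 bases before the start of *Cxcl10*. The *Sele* window held neither set of letters, which says only that these letters are not in this window. Of the 8 NF-kB list genes that were higher, 6 had a window in the reference, and 4 of these held the NF-kB form (*Il6*, *Nfkbia*, *Rel* and *Tnfaip3*), against 0 of 3 tested genes of the list that were not called higher. The genes of that list were picked as induced through NF-kB, so these counts are no test. The NF-kB form was also in the window of *Cxcl2*, which was not called. In the interferon list, 1 of 3 genes called higher that had a window and 3 of the 19 others held it. The interferon form was in 1 of 3 interferon-list genes called higher that had a window and in 10 of the 19 others. A match is a description of the sequence and not a measured site.

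Interferon-inducible genes did not move in 1 direction as a list. Of 28 genes, 27 were tested, 5 were higher in members and 5 lower, and the median log2FC was -0.03. Both shares of the list were above the 8.82% higher and 6.27% lower of all tested genes. *Irf1*, a transcription factor that both interferon-gamma and NF-kB induce, was at 549, 426 and 149 CPM in members and at 117, 161 and 92.3 in other endothelial cells (1.59 ± 0.21, adjusted p = 9.3e-12). The GTPase genes *Iigp1* (1.13 ± 0.17) and *Gbp4* (0.89 ± 0.27), *Ifitm3* (0.60 ± 0.13) and *Ifit1* (0.57 ± 0.21, adjusted p = 0.046) were the other higher ones. *Rsad2*, which encodes the antiviral protein viperin, was at 34.1, 44.4 and 57.9 in members and at 430, 236 and 163 in the other cells, with no overlap (-3.01 ± 0.29, adjusted p = 7.1e-23). *Cmpk2*, the neighbour of *Rsad2* in the genome and also interferon-inducible, was lower (-1.92 ± 0.48), though not in every library. *Irf7* (-1.14 ± 0.31) and *Xaf1* (-0.99 ± 0.35) were lower too. *Isg15* was at 161, 293 and 182 in members against 157, 200 and 163 and did not pass the test (0.14 ± 0.21, adjusted p = 0.80).

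**Figure D5:**
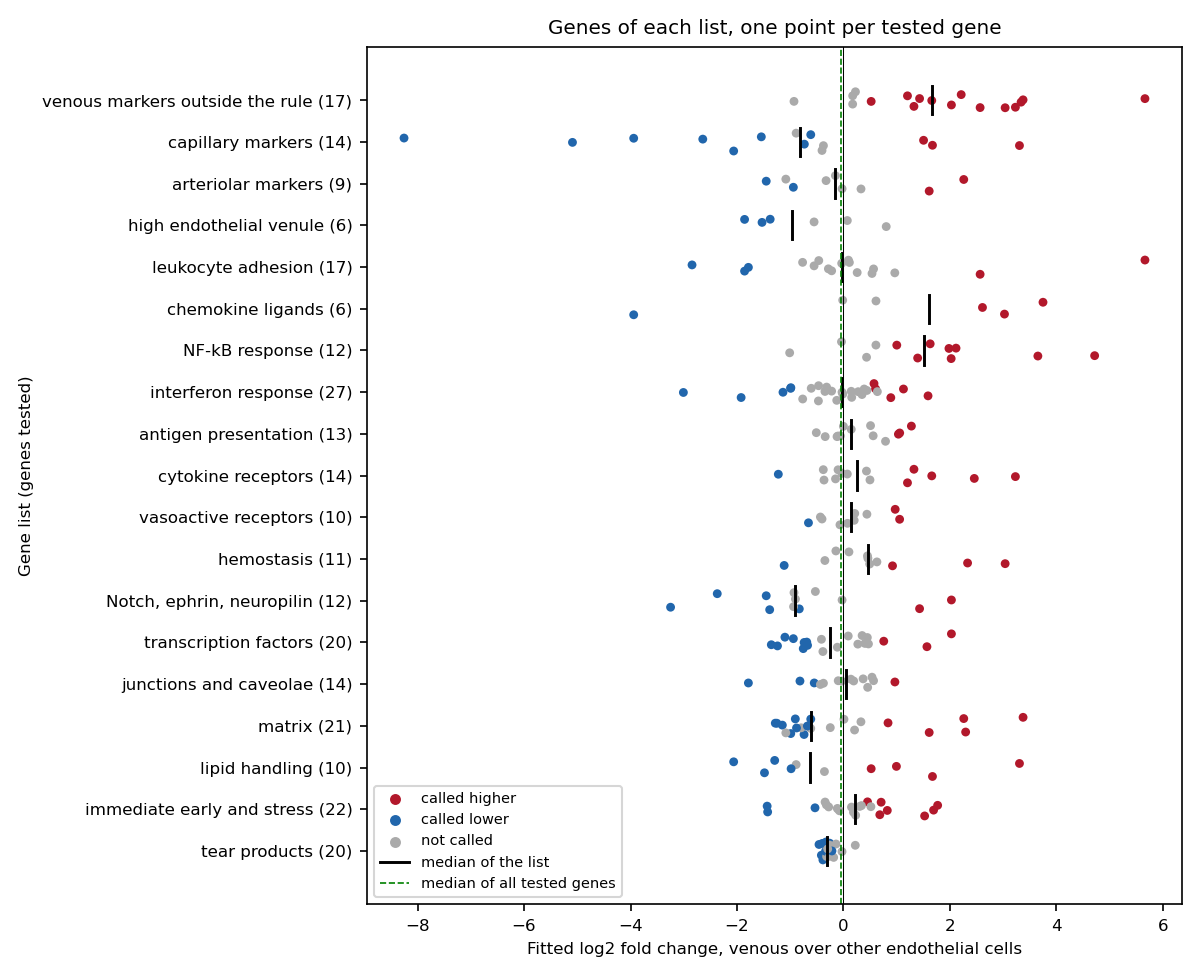
Each point is a tested gene at its fitted log2 fold change of members over other endothelial cells (horizontal axis), grouped by gene list with the number tested in brackets. Colour gives the call, black bars the median of a list and the dashed line the median of all tested genes (-0.05). The venous, chemokine and NF-kB lists have medians above 1.5, while the interferon and adhesion lists hold genes on both sides of 0.

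Of 22 cytokine receptor genes listed, 14 were tested, 5 were higher and 1, *Il10rb* (-1.22 ± 0.36), was lower, beside 8.82 and 6.27% of all tested genes. *Il1r1*, *Il4ra* and *Csf2rb2* were tested through members alone. *Il6st*, the signalling chain gp130 shared by the IL-6 family, was at 539, 382 and 240 CPM in members and at 154, 129 and 70.5 in other endothelial cells (1.66 ± 0.21, adjusted p = 4.3e-13). *Csf2rb2* and *Csf2rb* encode beta chains of the receptors for IL-3, IL-5 and GM-CSF. *Csf2rb2* was at 60.5, 88.8 and 41.3 against 4.92, 5.77 and 12.1 (3.23 ± 0.49, adjusted p = 1.5e-09), and *Csf2rb* was higher by 1.20 ± 0.34. The 2 genes are near-identical copies, so the split of UMIs between them is uncertain. *Il4ra* (2.46 ± 0.56) and *Il1r1* (1.32 ± 0.41) were the others. The histamine receptor gene *Hrh1*, too sparse to be tested, had 9, 2 and 0 UMIs in members and 0, 1 and 0 in the other cells.

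Of 12 tested genes for Notch, ephrin and neuropilin signalling, 5 were lower and 2 higher in members, with a median log2FC of -0.92. These counts stand beside 6.27 and 8.82% of all tested genes. *Notch4* and *Jag2*, 2 of the lower ones, were tested through other endothelial cells alone and could hardly have been called higher. *Notch4*, an endothelial Notch receptor, had 3 UMIs in members and 122 in other endothelial cells, a ratio of 9.79-fold lower (95% interval 3.27 to 48.1, counting error only). The ligand *Jag2* was at 18.9, 8.88 and 0 CPM in members and at 94.5, 38.4 and 24.3 in the other cells (log2FC -2.37 ± 0.42, adjusted p = 5.9e-07). The Notch target *Hes1* was lower (-0.83 ± 0.28). The neuropilins, co-receptors of VEGF and semaphorins, moved in opposite directions. *Nrp2*, the venous and lymphatic form, was at 316, 151 and 99.2 in members and at 95.8, 61.5 and 55.9 in the other cells (1.43 ± 0.23, adjusted p = 3.4e-08). *Nrp1* was at 246, 115 and 141 against 664, 348 and 250 (-1.39 ± 0.22, adjusted p = 8e-09). Without the female library *Nrp2* no longer passed the test (log2FC 0.86, adjusted p = 0.13).

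Among 20 tested transcription factors of endothelium, *Nr2f2*, *Sox7* (1.57 ± 0.30) and *Foxp1* (0.76 ± 0.22) were higher and 8 were lower. Over all tested genes, 8.82% were higher and 6.27% lower. The lower factors held the flow-induced *Klf2* (-0.69 ± 0.20) and *Klf4* (-0.76 ± 0.22), with *Gata2*, *Sox18*, *Mef2c*, *Sox17*, *Lmo2* and *Epas1*. *Meox2* had 61, 2 and 3 UMIs in members and 10, 4 and 2 in other endothelial cells, a total that failed the filter on low counts, and nearly all of it came from the female library.

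Hemostasis genes went both ways, with 3 of 11 tested higher and 1 lower, beside 8.82 and 6.27% of all tested genes. Besides *Vwf*, *Procr*, the receptor of protein C, and *Pros1*, protein S (0.92 ± 0.33, adjusted p = 0.035), were higher among 11 tested genes. *Procr* was at 104, 26.6 and 16.5 CPM in members and at 12.1, 11.5 and 21.9 in other endothelial cells (2.33 ± 0.38, adjusted p = 3.6e-08), and the member level of male library 2 lay below its own other cells. *Thbd*, thrombomodulin, was lower, at 185, 169 and 74.4 against 453, 227 and 182 (-1.11 ± 0.23, adjusted p = 2.1e-05).

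Of 21 tested genes of the matrix, 5 were higher and 9 lower, beside 8.82 and 6.27% of all tested genes. The higher ones were *Bgn*, *Adamts9*, *Mgp*, *Fbln2* and *Adamts1*. *Adamts9*, a protease that trims proteoglycans, was at 187, 337 and 231 CPM in members and at 36.3, 61.5 and 48.6 in other endothelial cells (2.29 ± 0.23, adjusted p = 1.4e-20). The lower ones held genes of the basement membrane and matricellular proteins: *Col4a1* (-0.74 ± 0.21), *Col4a2* (-1.15 ± 0.23), *Lama4*, *Lamb1*, *Hspg2*, *Sparc*, *Sparcl1*, *Timp3* and *Igfbp7*. The gap junction gene *Gja1* was higher, at 146, 249 and 215 against 100, 96.1 and 65.6 (0.97 ± 0.22, adjusted p = 0.00026), and the caveolar genes *Cav1* (-0.55 ± 0.20) and *Cav2* (-0.82 ± 0.26) were lower.

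Outside the lists, *Rcan1*, *Rasgef1a*, *Fgl2*, *Adamts4*, *Ptn*, *Ctnnal1* and *Mctp1* were among the 15 genes of largest fitted increase and were higher in 3 of 3 libraries. All of them were tested through members alone and could hardly have been called lower. *Rcan1*, an inhibitor of calcineurin, was at 293, 311 and 256 CPM in members and at 10.3, 13.5 and 12.1 in other endothelial cells (4.62 ± 0.28, adjusted p = 4e-57), an even level over the libraries. The aggrecanase gene *Adamts4* was at 104, 169 and 198 against 4.48, 21.1 and 12.1 (3.83 ± 0.32, adjusted p = 3.3e-30). *Ptn*, the growth factor pleiotrophin, was at 280 in the female members and at 35.5 and 41.3 in the male members, against 8.51, 17.3 and 19.4 in the other cells (3.66 ± 0.36, adjusted p = 1.1e-21). Its log2 ratio was 5.04 in the female library and 0.98 and 0.96 in the male ones, which held 4 and 5 member UMIs of it. Of the lower genes, *Prom1* (-4.23 ± 0.47) and *Sema7a* (-4.04 ± 0.46) followed *Esm1*, *Btnl9* and *Acta2* in fitted fold change. All of these lower genes were tested through other endothelial cells alone and could hardly have been called higher. *Acta2*, the actin of pericytes and smooth muscle, had 2 UMIs in members and 183 in other endothelial cells, a ratio of 22.0-fold lower (95% interval 6.01 to 183, counting error only). The pericyte gene *Rgs5* had 0 UMIs in members and 6, 4 and 9 in the other cells. The 9 mural genes listed summed to 32.2, 133 and 66.1 CPM in members against 103, 100 and 185, so the list was not lower in male library 1.

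Immediate early genes, which tissue digestion is known to induce, were tested in full. Of 22 genes of this and the heat shock group, 7 were higher and 3 lower, beside 8.82 and 6.27% of all tested genes. *Zfp36*, which encodes an mRNA decay factor, was at 3249, 879 and 843 CPM in members and at 646, 350 and 255 in other endothelial cells (1.77 ± 0.16, adjusted p = 2.6e-24). *Socs3* (1.69 ± 0.20) and *Atf3* (1.52 ± 0.20) came next. *Fos* was at 2255, 835 and 554 against 1187, 1228 and 926 and did not pass the test (-0.12 ± 0.16, adjusted p = 0.77). *Hspa1a* (-1.43 ± 0.23) and *Hspa1b* (-1.42 ± 0.24) were lower. The part of digestion in the levels of NF-kB and cytokine genes was not tested, since every library was digested.

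Genes of antigen presentation depended on the female library. Of 13 tested, *H2-Eb1*, *H2-Ab1* and *Cd74* were higher, beside 8.82% of all tested genes. *H2-Eb1* was at 182, 8.88 and 74.4 CPM in members and at 38.1, 30.8 and 75.3 in other endothelial cells (1.28 ± 0.30, adjusted p = 0.00025), that is, higher in 1 of 3 libraries. Without the female library the log2FC was -0.59 for *H2-Eb1*, -0.42 for *H2-Ab1* and -0.04 for *Cd74*. The female members also held 18, 27 and 17 UMIs of the macrophage genes *C1qa*, *C1qb* and *C1qc*, while male library 1 held none and male library 2 held 0, 0 and 1. The part of the macrophage RNA in this result was not tested. Tear-product genes were lower in members for 10 of 20 tested genes, beside 6.27% of all tested genes. Their median log2FC was -0.30, in the direction of the smaller tear-product share given above.

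Members were also split by whether they held a *Sele* UMI. *Selp*, whose UMIs the rule used, is given as a description. Members with a *Sele* UMI held *Selp* at 3110, 3003 and 2984 CPM, and those without at 1530, 1728 and 1520. The median depth was 3046, 1517 and 1306.5 UMIs with *Sele* and 2842.5, 1587 and 1365.5 without. The same split gave *Icam1* at 671, 624 and 585 with *Sele* and at 523, 359 and 172 without, and *Cxcl10* at 560, 1111 and 1911 with and at 262, 734 and 732 without. *Vcam1* was at 616, 468 and 585 with *Sele* and at 683, 456 and 416 without. These are values of cells within each library, with no test. In male library 2, 1 member of 19171 UMIs held 15.8% of the members’ UMIs. It was among those without *Sele* and weighs on their levels. By share of cells in that library, *Icam1* was found in 58.8% of members with *Sele* and 25.0% without. For *Cxcl10* these shares were 76.5 and 56.25%, and for *Vcam1* 52.9 and 46.9%. *Vwf* and *Cxcl10* did not go together: a *Cxcl10* UMI was found in 30.3, 38.9 and 65.0% of members with *Vwf* and in 33.3, 59.2 and 67.4% of those without.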

How the data were processed

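Libraries were made with the 10x Genomics 3′ kit and the authors’ processing notes name Cell Ranger 6.1.2 and mm10. The authors deposited raw UMI counts for 32285 genes, both for called cells and for all barcodes. The decontamination and doublet removal that the study describes were not rebuilt. The members and gene lists were chosen with earlier results of these data known, and the 31 lists are no independent support. UMI counts were summed per library over members and over other endothelial cells and fitted in R 4.3.3 with edgeR 4.0.16 (filterByExpr, TMM, quasi-likelihood test, library as a block), leaving out the 13 rule genes. The block follows from the design, since both sums of a library come from the same animals. Genes named were list genes with at least 10 UMIs over both sums, and the 15 higher and 15 lower genes of largest fold change, alike in 3 of 3 libraries, with at least 30 UMIs, except that 1 list gene is not reported here. *Cldn5* and other sparse genes are from these lists. On simulated counts (3692 genes), the test called 56% of genes raised 2-fold, 98% raised 4-fold, 24% lowered by a factor of 0.5 and 1 of 3064 unchanged genes. These counts were drawn from the fitted model, with the spread of each gene set by its level. Genes whose ratio differs between libraries were not simulated, so the last count is no rate of false calls for these data. Doublets were scored with scanpy 1.11.5, and DESeq2 1.42.0 was an alternative. Gene positions are from GENCODE on GRCm38. Windows before gene starts are from RefSeq GRCm38.p6. Intervals are exact and cover counting error only.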

Additional observations from a re-analysis of the deposited data

Results flagged for a closer look

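For 3 genes the female library went one way and both male libraries the other. The log2 ratio of members over other endothelial cells of *H2-Eb1* was 2.29 among female cells, against -1.41 and -0.14 in the male libraries. For *H2-Ab1* it was 1.94, -0.13 and -0.34, and for *Fos* 0.96, -0.70 and -0.91. The difference between the libraries was not tested, since there is 1 female library, and sex cannot be told apart from core or day.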

How the results depend on the processing

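The 325 higher and 231 lower genes became 150 and 67 with DESeq2, 118 and 77 with no replicate block (the arm alone, ignoring the pairing of sums within a library), 107 and 101 with cells thinned to 1000 UMIs (1014 genes tested), and 194 and 120 with free RNA subtracted (2555 genes tested). With 1 library left out, the counts ran from 184 to 290 higher and from 135 to 188 lower, lowest in both directions without the female library. With no filter on low counts 230 and 215 of 15035 genes were called. Under the other settings, 290 to 341 genes were higher and 197 to 237 lower, except for 253 and 172 with the deeper free RNA profile and 288 and 197 against capillary-gated cells. Those 2 settings and the removal of cells above 10000 UMIs (311 and 210) were chosen after seeing the data. At 3 or more UMIs, the share of venous cells was 15.1% in the female library and 12.97% in male library 1, and after thinning it was 11.6% in the female library.

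With 1 library left out, some log2 fold changes changed sign. They ran from -0.15 to 0.83 for *Apoe*, -0.041 to 1.39 for *Cd74*, -0.42 to 1.53 for *H2-Ab1*, -0.59 to 1.83 for *H2-Eb1*, -0.29 to 0.41 for *Tmem176a* and -0.15 to 0.39 for *Tmem176b*, each lowest without the female library. *Fos* ran from -0.86 without the female library to 0.21 without male library 2 (0.16 without male library 1), and *Ctla2a* from -0.032 without male library 2 to 0.31. *Cxcl2* ran from -0.21 without male library 1 to 1.09 without male library 2, and *Cx3cl1* from -0.092 without male library 1 to 0.25 without male library 2, with 0.030 at a mitochondrial share under 5%. After thinning, *Ctla2a* was at -0.028, *Icam2* at 0.011, *Ifit1* at -0.12, *Isg15* at -0.60 and *Tmem176b* at -0.17. The cause of these changes was not tested. Without the female library, *Abca1*, *Adgrl4*, *Cav1*, *Cd300lg*, *Col4a1*, *Col4a2*, *Epas1*, *Fabp5*, *Foxp1*, *Gbp4*, *Gnaq*, *Hes1*, *Hspg2*, *Ifit1*, *Irf7*, *Jam3*, *Lmo2*, *Nrp2*, *Pros1*, *Ptgs1*, *Sox17*, *Sparc*, *Sparcl1* and *Xaf1* kept their direction and no longer passed. With DESeq2, 45 of 111 named calls no longer passed: *Abca1*, *Adgrl4*, *Apoe*, *Birc3*, *Cav1*, *Cav2*, *Cd300lg*, *Cd74*, *Chst2*, *Cmpk2*, *Col4a1*, *Col4a2*, *Csf2rb*, *Efnb2*, *Enpp2*, *Epas1*, *Foxp1*, *Gata2*, *Gbp4*, *Gnaq*, *H2-Ab1*, *H2-Eb1*, *Hes1*, *Hspg2*, *Ifit1*, *Il10rb*, *Il1r1*, *Irf7*, *Klf2*, *Klf4*, *Lama4*, *Lamb1*, *Lgals3bp*, *Lmo2*, *Procr*, *Pros1*, *Ptgs1*, *Rel*, *Sgk1*, *Sox17*, *Sox18*, *Sparc*, *Sparcl1*, *Stmn1* and *Xaf1*. With no replicate block 49 were lost, which were these without *Lgals3bp* and *Procr* and with *Adamts1*, *Fabp5*, *Gja1*, *Ifitm3*, *Igfbp7* and *Timp3*. With free RNA subtracted 27 of 102 were lost, of which *Ifitm3* was not among those lost with DESeq2. The male members’ 112627 and 120990 UMIs limit what those libraries can show of low genes.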

Other observations

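Genes of further groups also differed between members and other endothelial cells. Beside each count below stand the 8.82% higher and 6.27% lower of all tested genes. Ribosomal protein genes, a group chosen after its values were seen, were higher in members for 65 of 80 tested genes and lower for 0, with a median log2 fold change of 0.55 (0.71, 0.35 and 0.57 in the order female, male 1, male 2) against -0.06 over the other tested genes. Among 10 tested genes of lipid handling, *Fabp4*, *Fabp5*, *Abca1* and *Apoe* were higher and *Gpihbp1*, *Mgll*, *Pltp* and *Scarb1* lower. *Scarb1*, the receptor of high-density lipoprotein, was at 193, 195 and 149 CPM in members and at 426, 354 and 211 in other endothelial cells. *Abca1*, which exports cholesterol, was at 117, 97.7 and 82.7 against 54.6, 55.7 and 36.4. Of 10 tested receptors and enzymes of vascular tone, *Ptgs1* and *Gnaq* were higher and *Adgrl4* lower. *Masp1*, tested through members alone and a protease of the lectin pathway of complement, was at 24.6, 44.4 and 41.3 in members and at 1.79, 1.92 and 0 in the other cells, and it was the 1 higher gene of 3 tested complement genes. Of 4 tested cell cycle genes, *Stmn1* was lower, though not in every library.

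Genes of fibroblasts beyond the rule summed to 13.2, 17.8 and 24.8 CPM in members and to 32.7, 49.98 and 36.4 in other endothelial cells. Mural genes summed to 32.2, 133 and 66.1 against 103, 100 and 185, lymphatic genes to 18.9, 8.88 and 8.27 against 57.8, 21.1 and 21.9, and platelet genes to 7.57, 8.88 and 16.5 against 8.51, 15.4 and 4.86. Erythroid genes summed to 0, 0 and 116 in members, all from male library 2, and to 154, 3.84 and 0 in the other cells.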
